A study of Mus musculus with 70 samples.

Results

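The genes described are the 7 members of the calcitonin, calcitonin gene-related peptide (CGRP) and amylin receptor family, chosen by name from the gene-level file. They are Calca and Calcb, which encode peptide precursors, Calcr and Calcrl, which encode receptors, and Ramp1, Ramp2 and Ramp3, which encode receptor activity-modifying proteins (RAMPs). All 7 were found among the 34677 genes listed. RNA was sequenced from punch biopsies of untreated C57BL/6NTac mice and from mouse embryonic stem cells (mESCs), in 70 libraries of 24 groups. Of these libraries, 57 came from 18 regions of male mice at P56, 9 from 4 regions of embryos at E14.5 and 4 from 2 mESC lines.

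The hypothalamic groups were the arcuate (ARH, n = 3), ventromedial (VMH, n = 2), dorsomedial (DMH, n = 4) and paraventricular (PVH, n = 2) nuclei and the lateral hypothalamic area (LHA, n = 3). The brainstem groups were the parabrachial nucleus (PB, n = 3), the nucleus of the solitary tract (NTS, n = 4), the dorsal-vagal complex (DVC, n = 3) and the ventral tegmental area (VTA, n = 3). The forebrain groups were the nucleus accumbens (ACB), the frontal pole cortex (FRP), the anterior cingulate area (ACA) and the entorhinal area (ENT), each with n = 3. From the cerebellum came its nuclei (CBN, n = 3), central lobule II (CENT2, n = 4), culmen lobules IV-V (CUL4-5, n = 4), the uvula (UVU, n = 3) and the flocculus (FL, n = 4). The embryonic groups were the terminal and peduncular hypothalamus (THy-PHy, n = 3), the forebrain (F, n = 1), the midbrain (M, n = 2) and the hindbrain (H, n = 3). The mESC lines B6-1 and B6-2, each 1 clone from C57BL/6 mice, had 2 libraries each. A brain library was a pool of tissue from several animals, except 1 ACB library made from a single mouse, so p-values measure the spread between pools. The same mice supplied several regions, and the labels do not give the animals of each library, so libraries of different regions were compared as independent although they share animals. F had 1 library and therefore has no spread.

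CGRP is a sensory and vasodilator neuropeptide, and CGRP neurons of the parabrachial nucleus are known for suppressing feeding and relaying aversive signals. Amylin, a hormone of the pancreatic beta cell encoded by Iapp, is known to reduce food intake through the area postrema of the dorsal-vagal complex. The calcitonin receptor, Calcr, binds calcitonin on its own and becomes an amylin receptor when it pairs with a RAMP. The calcitonin receptor-like receptor, Calcrl, needs a RAMP to reach the cell surface and forms the CGRP receptor with Ramp1 and adrenomedullin receptors with Ramp2 or Ramp3.

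Levels are gene TPM (transcript abundance scaled for length and to the same total in every library), and differences are log2 fold changes of estimated counts from edgeR's quasi-likelihood test. The libraries held 9074581 to 22229582 estimated counts. Mitochondrial transcripts took 39.6% of the TPM of VTA replicate 1 and 22.6% of H replicate 1, against a median of 7.49% over all libraries. Most markers chosen to check the labels had their highest mean in the labelled tissue, whereas Fezf1, Sim1 and Hoxb5 had higher means in THy-PHy or H than in the adult region they mark. Some markers were also high in another hypothalamic punch. Pmch, which marks LHA, had a mean of 4539 TPM there and 3525 TPM in VMH. Nr5a1, which marks VMH, had 33.6 TPM there and 18.3 TPM in ARH. The part of neighbouring tissue in a punch was not tested. Choroid plexus markers (5 genes led by Ttr) summed to 10624 TPM in NTS replicate 1 and to 3519 to 12631 TPM in CBN. Pituitary markers (7 genes) summed to 80.6 to 127.9 TPM in ARH and to at most 39.5 TPM in any other library.

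Each of the 22 brain regions was compared with the mean of the other 21 on the log scale. Called genes are those with an adjusted p under 0.05 whose log2 fold change exceeded 1 in either direction. Of the 154 combinations of a member and a region, 70 were called, 48 higher and 22 lower, where 16.2% of all gene and region combinations were called. The median log2 fold change over the 154 combinations was 0.22. The 7 members differed in how regional they were. Ramp3, Calcr, Ramp1, Calca and Calcb were called in 7 to 19 regions each, Calcrl in 1 region and Ramp2 in 0. The calls of Ramp1 depended on the embryonic regions, since edgeR called it in 0 of 18 adult regions when these were compared with each other.

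By region, the number of members called was read against the share of all 19960 tested genes called there. In the hypothalamus, 4 of 7 members were called in DMH (9.47% of all genes) and in PVH (7.43%), 3 in VMH (9.93%) and in LHA (8%), and 2 in ARH (12.4%). In the brainstem, 4 of 7 were called in PB (8.77%) and in DVC (9.59%), and 3 in NTS (11.6%) and in VTA (13.0%). The share of members called was thus above that of all genes in each of these 9 regions. Ramp1 was among the called members in each of them, calls that depended on the embryonic regions in the rest. In ARH the only other member called was Calcr. In the forebrain, 4 of 7 were called in ACA (17.9%), 3 in FRP (14.1%) and in ENT (14.7%), and 2 in ACB (13.0%). In the cerebellum, 4 of 7 were called in FL (13.7%) and 3 each in CBN (13.2%), CENT2 (15.8%), CUL4-5 (18.3%) and UVU (16.5%). In the embryo, where many genes differ from adult tissue, 4 of 7 were called in THy-PHy (31.8%), 3 in M (27.5%) and in H (35.6%), and 2 in F (34.6%). The share of members in F was close to that of all genes.

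**Figure D1:**
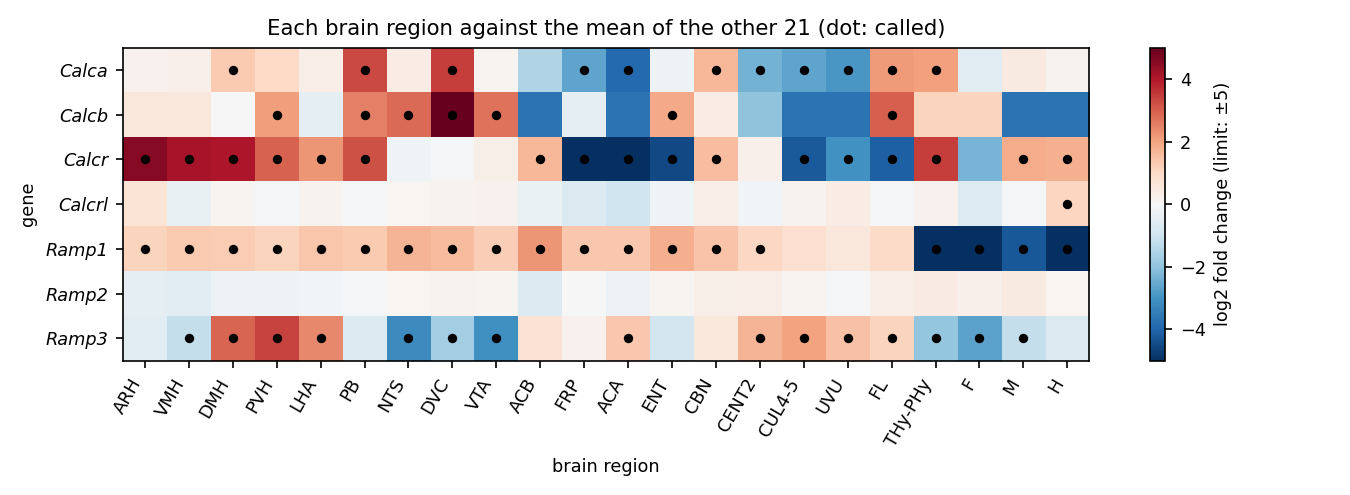
Log2 fold change of each member (rows) in each of the 22 brain regions (columns) against the mean of the other 21, from edgeR, with colors limited to 5 in either direction and a dot where the gene was called. Calcr is called higher in all 5 adult hypothalamic regions, Ramp3 is called higher in 3 of them, and Ramp2 is called in none of the 22 regions.

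The ligand gene Calca lies on chr7:114631478-114636357 (GRCm38, minus strand) and is spliced to make either calcitonin or CGRP. Calcb, which encodes a second CGRP, lies on chr7:114718643-114723365 on the plus strand. The coding exons that carry the peptides are shown because they set which hormone each transcript makes and how far the CGRP genes can be told apart by short reads. They come from the GENCODE release 21 mouse transcripts, 5′ to 3′, and capitals mark runs of lysine or arginine codons, with a glycine codon before them where there is one, which flank the peptides as processing sites.
Calca calcitonin exon (exon 4 of Calca-202, chr7:114633605-114633785, minus strand): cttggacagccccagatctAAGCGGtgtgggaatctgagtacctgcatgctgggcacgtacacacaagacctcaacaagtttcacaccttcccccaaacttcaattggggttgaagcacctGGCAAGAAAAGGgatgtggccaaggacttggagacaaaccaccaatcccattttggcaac
Calca CGRP exon (exon 4 of Calca-201, chr7:114632443-114632599, minus strand): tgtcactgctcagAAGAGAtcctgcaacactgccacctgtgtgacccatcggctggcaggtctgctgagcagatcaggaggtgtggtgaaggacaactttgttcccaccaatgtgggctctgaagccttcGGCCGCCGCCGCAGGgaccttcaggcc
Calcb CGRP exon (exon 4 of Calcb-201, chr7:114721975-114722134, plus strand): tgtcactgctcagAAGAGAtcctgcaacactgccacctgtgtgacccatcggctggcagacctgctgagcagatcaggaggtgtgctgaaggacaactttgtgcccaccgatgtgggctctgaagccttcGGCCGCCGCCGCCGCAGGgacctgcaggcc
The CGRP exons of Calca and Calcb matched at 151 of 157 aligned bases (96.2%). The Calca CGRP exon and the Calca calcitonin exon, which follow the same upstream exons, matched at 80 of 152 aligned bases (52.6%). Of all windows of 33 bases, the read length, in the transcripts of Calca, 1.73% also occurred in Calcb, and 2.3% of those of Calcb occurred in Calca. The values of these genes are thus separate for most reads, and reads from the shared windows could be split between them.

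Calca was highest in PB and DVC. In PB its libraries held 28.4, 35.0 and 54.2 TPM, a mean of 39.2 ± 13.4 (SD, n = 3). In DVC they held 86.2, 15.1 and 16.97 TPM, a mean of 39.4 ± 40.5 (SD, n = 3). All 3 PB libraries were above every library of the other groups except DVC replicate 1, FL replicate 1 (40.8 TPM) and THy-PHy replicate 3 (31.7 TPM). Against the other 21 regions, Calca was 3.29 (SE 0.37) higher in PB on the log2 scale (edgeR adjusted p = 2.34e-10) and 3.45 (SE 0.36) higher in DVC (adjusted p = 2.53e-11). Without DVC replicate 1 the difference in DVC was 1.72, still past the threshold (adjusted p = 0.00361).

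Calca was also called higher in FL (2.15), THy-PHy (2.06), CBN (1.65) and DMH (1.30). In FL the libraries held 40.8, 12.6, 13.5 and 10.4 TPM, and the difference was 1.52 without replicate 1. In CBN they held 2.22, 21.3 and 11.9 TPM, and the call was lost without replicate 2 (0.83, adjusted p = 0.276). These groups are uneven, with 1 library well above or below the others. In DMH the libraries held 8.46, 6.99, 17.9 and 10.2 TPM, and the call was lost without replicate 3 (1.07, adjusted p = 0.0782). In THy-PHy they held 22.8, 12.5 and 31.7 TPM. Calca was called lower in ACA (−3.89), UVU (−2.90), CUL4-5 (−2.65), FRP (−2.64) and CENT2 (−2.37). The libraries of these 5 cortical and cerebellar regions held 1 to 13 estimated counts each, so that their values rest on few reads.

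Calcb was low in nearly all tissue and was listed at 0 in 30 of 70 libraries. DVC was the exception, with 32.9, 4.27 and 5.93 TPM from 188, 34 and 35 estimated counts. All 3 DVC libraries were above the libraries of every other group except FL replicate 4, at 5.06 TPM. Calcb in DVC was 6.26 (SE 0.49) higher on the log2 scale than in the other 21 regions (adjusted p = 1.38e-13), and 4.82 higher without replicate 1. NTS, the neighbouring punch, held 0.25, 1.15, 3.75 and 1.01 TPM and was 2.82 higher (adjusted p = 0.000122). PB, where Calca was high, held 1.25, 1.27 and 1.02 TPM of Calcb from 4 to 9 counts per library (2.51 higher, adjusted p = 0.00271). Because several regions in the rest held 0 counts of Calcb, its differences on the log scale are no measure of size.

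Calcb was further called higher in FL (3.00), VTA (2.70), PVH (2.08) and ENT (1.88), all from 0 to 39 counts per library. The FL call rested on replicate 4 (0.66 without it, adjusted p = 0.219), the PVH call was lost without either library, and the ENT call without replicate 2 or 3. The number of regions called for Calcb varied from 7 in edgeR to 6 in DESeq2, 11 in limma on log2(TPM + 0.1) and 1 in limma on log2(TPM + 0.5). Its largest difference in any region was 6.261 in edgeR, 4.931 in limma on log2(TPM + 0.1) and 3.625 on log2(TPM + 0.5). ACB, ACA, CUL4-5, UVU, M and H held 0 counts of Calcb in all their libraries. With a floor of 3 counts over the group, the level was at least 8.87-fold lower in CUL4-5 and at least 4.47-fold lower in M than the mean of the other 21 regions, the widest and narrowest of these bounds. Without DVC replicate 1 in that mean they were at least 5.69-fold and at least 2.87-fold.

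**Figure D2:**
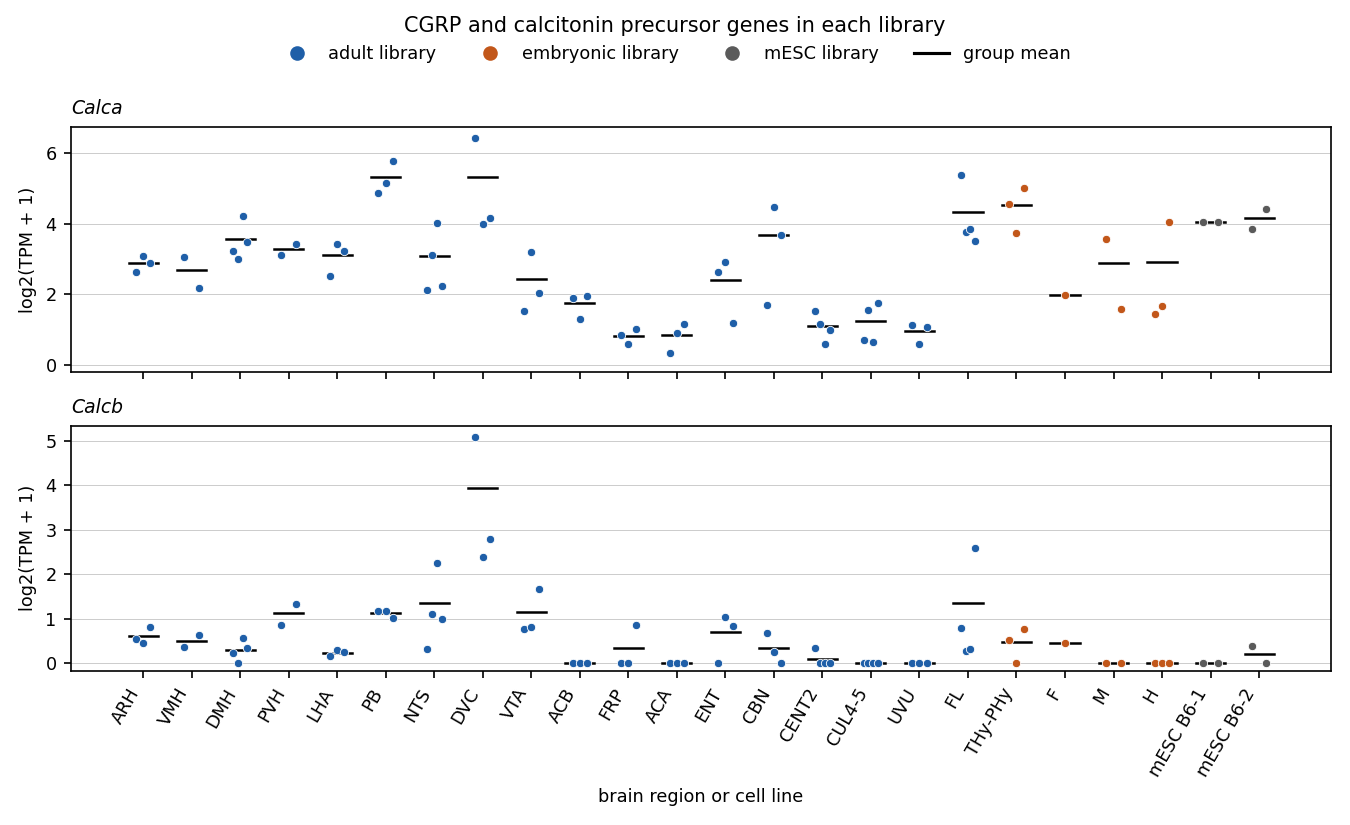
Calca (top) and Calcb (bottom) in each library as log2(TPM + 1), by group, with points for libraries colored by stage and a bar at the log2 of the mean TPM plus 1. Calca is highest in PB and DVC, and Calcb is above 14 TPM on average in DVC alone, where replicate 1 holds 32.9 TPM.

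Markers of cholinergic and motor neurons (Chat, Slc18a3, Slc5a7, Isl1, Prph and Mnx1, 6 genes) were set beside the ligands and followed them in some regions only. Their summed level was 358.0, 83.1 and 76.4 TPM in the DVC libraries, and the same replicate 1 was highest for Calca and Calcb. In PB it was 132.0 to 145.0 TPM, in NTS 21.7 to 51.4 TPM, and in FL 2.81, 0.733, 1.91 and 63.8 TPM, highest in the library that was highest for Calcb but not in the one highest for Calca. Over the 18 adult regions the correlation of the summed level with the member, on log2(mean TPM + 1), was r = 0.78 for Calca, 0.55 for Calcb and 0.68 for Calcr, a description over regions taken in part from the same animals. Prph, the gene whose regional pattern was most like that of Calca, is part of this sum, so its likeness is not a separate observation. In ACB the markers summed to 46.1 TPM on average, with Calca at 2.35 TPM and Calcb at 0. In ARH they summed to 82.4 TPM, with Calca at 6.34 TPM and Calcb at 0.525 TPM. In PB and ARH, 1 of the 6 markers was at 0, whereas all 6 were present in DVC and NTS. The part of these cells in the levels was not tested. In bulk tissue, fewer cells of a type and less RNA per cell cannot be told apart.

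Transcripts with the CGRP exon made up nearly all Calca RNA in adult brain. Their share of the mean Calca TPM was 99.8% in DVC, 97.9% in PB and 99.0% in FL, and between 80.6% and 100% over the 18 regions. Transcripts with the calcitonin exon were listed at 0 in all libraries of VMH, LHA, NTS, FRP, ACA, ENT, CBN, CENT2 and CUL4-5. In the other adult regions they took up to 6.86% (UVU) and 6.03% (VTA) of the gene, from 0 to 0.434 TPM per library in these 2 regions. In embryo and stem cells, transcripts with the calcitonin exon reached 1.73 ± 0.57 TPM (SD, n = 3) in THy-PHy, which was 7.74% of the gene, 10.5% in H, 11.1% in M, and 9.60% and 6.34% in the mESC lines. In the single F library it was 30.2% of a gene level of 2.95 TPM. These shares are estimates from 33-base reads assigned to transcripts, with no test between stages. The transcripts counted with the CGRP exon include Calca-203, annotated with a retained intron, which held 7.535 TPM on average in THy-PHy.

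Calcr, on chr6:3685680-3764714 (minus strand), was a hypothalamic and parabrachial gene in these data. The ARH libraries held 30.3, 26.4 and 28.0 TPM, the VMH libraries 14.2 and 29.4 TPM, and the DMH libraries 24.2, 13.0, 23.3 and 17.6 TPM. Every library of these 3 nuclei was above every library outside them, except that PB replicate 3 (16.5 TPM) and 2 THy-PHy libraries (13.8 and 14.6 TPM) reached into the lower part of their range. Against the other 21 regions, Calcr was 4.53 (SE 0.31) higher in ARH (adjusted p = 1.44e-17), 4.13 (SE 0.37) higher in VMH and 4.06 (SE 0.30) higher in DMH on the log2 scale.

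A lower level was measured in the other hypothalamic punches and in PB. PVH held 6.88 and 12.4 TPM (2.95 higher), LHA held 4.61, 4.64 and 6.69 TPM (2.22 higher) and PB held 9.92, 7.40 and 16.5 TPM (3.19 higher). Calls in ACB (1.66) and CBN (1.53) came from uneven libraries, with 1 library in each well below the others. ACB held 6.99, 0.508 and 4.98 TPM, and the call was lost without replicate 1 (1.05, adjusted p = 0.115). CBN held 0.355, 6.05 and 2.93 TPM, and it was lost without replicate 2 (0.62, adjusted p = 0.387). The cholinergic and motor neuron markers summed to 4.84, 21.02 and 11.01 TPM in these CBN libraries, in the same order as Calcr and Calca, and their part in either level was not tested. In the dorsal hindbrain, where amylin is known to act, Calcr was close to 1 TPM. NTS held 0.990 ± 0.167 TPM (SD, n = 4) and DVC 1.14 ± 0.26 TPM (SD, n = 3), neither of them called.

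In the embryo Calcr was called higher in THy-PHy (3.48), in M (1.86), with 3.74 and 6.26 TPM, and in H (1.76), with 0.793, 4.38 and 6.33 TPM. The call in M was lost without replicate 2 (1.31, adjusted p = 0.116).

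In cortex and cerebellar cortex Calcr was near 0. FRP and ACA each held 1 estimated count over 3 libraries, which is 685-fold lower than the mean of the other 21 regions in FRP (95% counting interval 123 to 27068) and 638-fold lower in ACA (115 to 25199). These intervals cover counting error only. ENT (−4.52), CUL4-5 (−4.22), FL (−4.06) and UVU (−3.02) were called lower from 0 to 6 counts per library. All 4 CENT2 libraries, at 0.292 to 4.89 TPM, were above every CUL4-5, UVU and FL library, the highest of which held 0.282 TPM. In replicate 1, the highest of CENT2, the cholinergic and motor neuron markers summed to 30.2 TPM, against 0.663 to 1.96 TPM in the other CENT2 libraries, and their part in the level was not tested.

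Calcr has transcripts with and without an exon that in rodents adds residues to an extracellular loop of the receptor. The exon is shown because it alone tells these forms of receptor RNA apart. Capitals mark the exon of 111 bases, which keeps the reading frame over 37 codons, and lower case the 15 bases on each side in the transcript.
Calcr insert exon (exon 10 of Calcr-201, chr6:3707489-3707599, minus strand): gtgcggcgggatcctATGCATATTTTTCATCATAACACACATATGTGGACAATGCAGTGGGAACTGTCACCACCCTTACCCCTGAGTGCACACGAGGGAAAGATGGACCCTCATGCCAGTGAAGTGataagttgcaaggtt
Transcripts with the exon held 9.85 ± 5.26 TPM and those without it 18.4 ± 3.3 TPM in ARH (SD, n = 3). The share with the exon was 34.9% of the mean level in ARH, 46.6% in VMH, 40.0% in DMH, 48.6% in PB and 46.6% in THy-PHy. These shares overlapped, since the single libraries ranged from 20.1% to 51.5% in ARH and from 19.7% to 85.9% in PB. In M the share was 70.9%. In CENT2, with a mean of 1.78 TPM, transcripts with the exon were listed at 0 in all 4 libraries.

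Calcrl, on chr2:84330626-84425411 (minus strand), was expressed at a low and even level. Over the 57 adult libraries it had a lowest value of 1.04, a median of 3.17 and a highest value of 7.47 TPM, and it reached a mean of 1 TPM in each of the 22 brain regions. ARH was highest among adult regions with 6.77, 5.33 and 7.47 TPM. It was higher there than in the next region, UVU, by more than the larger SD of the pair. Only H was called, with 7.18, 7.85 and 7.24 TPM (log2 fold change 1.09, SE 0.13, adjusted p = 2.82e-10). Of the mean of 7.43 TPM in H, 2.50 TPM came from Calcrl-203, a transcript not annotated as protein coding. Among the 18 adult regions compared with each other, Calcrl was called in 0 by edgeR, with log2 fold changes from −0.96 to 0.72 and an unadjusted p under 0.05 in 5.

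Calcrl is known from blood vessels, and 10 endothelial markers (such as Cldn5, Pecam1 and Flt1) were set beside it. Their summed level was 177.1 ± 11.0 TPM in ARH (SD, n = 3), the lowest mean of the adult regions, and 375.5 ± 14.0 TPM in CBN (SD, n = 3), the highest. The correlation with Calcrl over the 18 adult regions was r = −0.07. Mural cell markers (8 genes) gave r = 0.29 with Calcrl, and fibroblast and meningeal markers (6 genes) gave r = 0.44. Pituitary markers gave r = 0.61, with ARH the highest region for both. In H, the fibroblast and meningeal markers summed to 529.0 to 1071 TPM, against 30.7 to 83.6 TPM in PB, NTS and DVC. They were as high in THy-PHy (561.9 to 796.8 TPM) and in M replicate 1 (977.3 TPM), where Calcrl, at 3.10 to 7.01 TPM and 2.66 TPM, was not called. All 10 endothelial and all 6 fibroblast and meningeal markers were above 0 in each of these regions, and their part in the level of Calcrl was not tested.

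**Figure D3:**
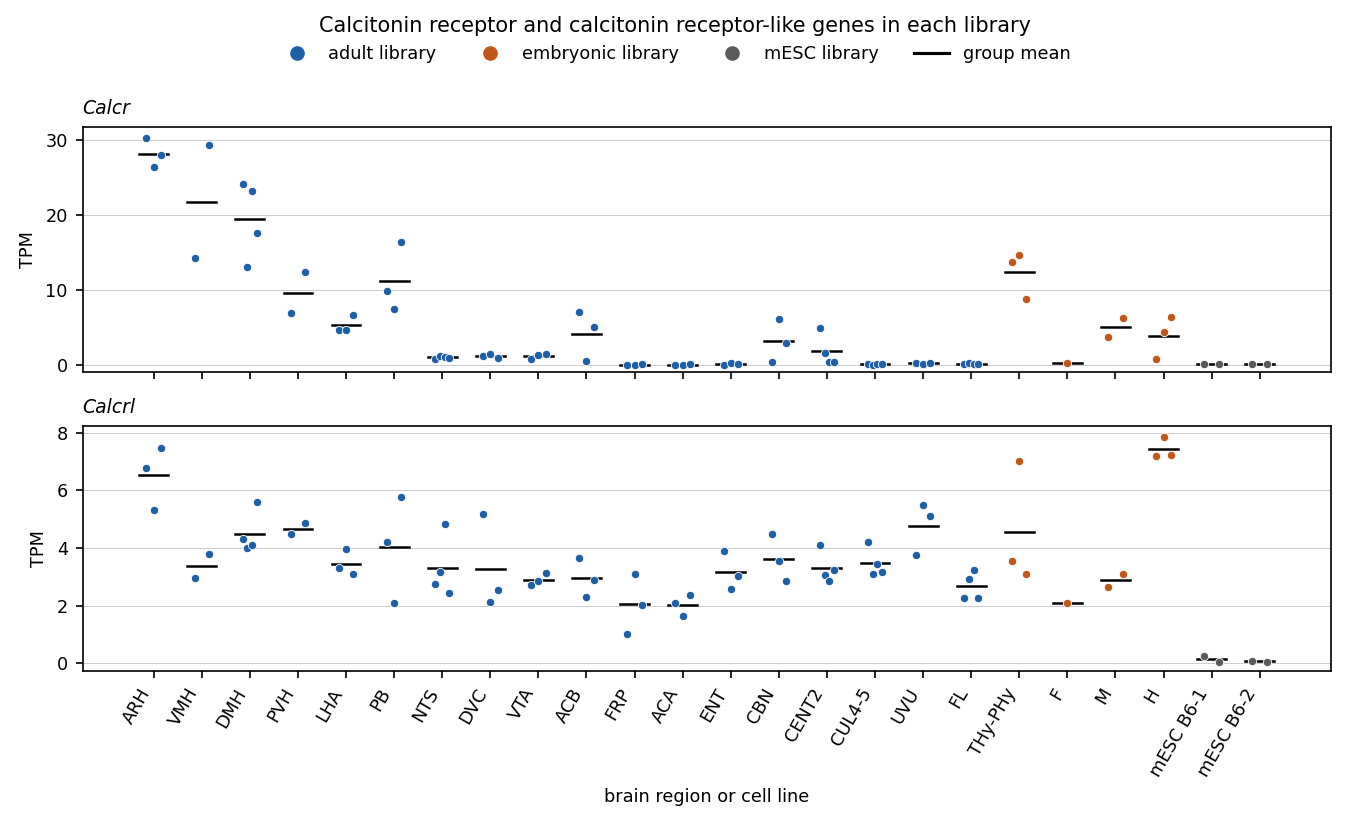
Calcr (top) and Calcrl (bottom) in each library in TPM, by group, with points for libraries colored by stage and a bar at the group mean. Calcr falls from 28.2 TPM in ARH to near 0 in cortex, whereas Calcrl stays between 1.04 and 7.47 TPM in all adult libraries.

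Ramp1, on chr1:91179822-91225196 (plus strand), encodes the partner that makes Calcrl the CGRP receptor, and it was present in every adult region. Over the 57 adult libraries it had a lowest value of 7.92, a median of 35.1 and a highest value of 64.6 TPM. The lowest value was VTA replicate 1, the library with the high mitochondrial share, beside 43.3 and 29.7 TPM in the other VTA libraries. ACB was highest with 59.0, 64.6 and 62.9 TPM, and its 3 libraries were above all others. In the 9 embryonic libraries Ramp1 was between 0.0343 and 1.35 TPM, below every adult library.

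Because the embryonic regions are part of the rest, Ramp1 was called higher in 15 adult regions, from 1.02 in CENT2 to 2.20 (SE 0.13) in ACB, and lower in THy-PHy (−5.70), M (−4.22), H (−5.03) and F. The call in CENT2 was lost without replicate 1 or 2 (0.88 and 0.89), and that in VTA without replicate 2 (0.97). The single F library held 1 count, 684-fold lower than the mean of the other 21 regions (95% counting interval 123 to 27035). With the other 17 adult regions as the rest, 42 of 126 combinations of members and regions were called (25 higher and 17 lower), where 10.9% of all genes and regions were called. In that comparison Ramp1 was called in 0 of 18 regions by edgeR, with an unadjusted p under 0.05 in 8. Its differences then ran from −0.74 (SE 0.16) in UVU to 0.90 (SE 0.13, adjusted p = 1.93e-07) in ACB, which stays under the fold limit. In ARH (−0.20), DMH (−0.02), PVH (−0.19), VTA (−0.06) and CENT2 (−0.29) the direction turned.

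Ramp2, on chr11:101246028-101259546 (plus strand), was the most even member. Adult libraries had a lowest value of 15.4, a median of 28.9 and a highest value of 52.4 TPM. It was called in 0 of 22 regions by edgeR, with an unadjusted p under 0.05 in 7, and also in 0 by DESeq2 and by limma on log2(TPM + 0.5), with an unadjusted p under 0.05 in 6 by each. The means ran from 18.7 ± 2.2 TPM (SD, n = 3) in ACB, where Ramp1 was highest, to 45.3 ± 8.6 TPM (SD, n = 3) in THy-PHy. Between Ramp1 and Ramp2 the correlation over the 18 adult regions was r = −0.51. Endothelial and mural markers each gave r = 0.59 with Ramp2, and their part in its level was not tested. Ramp2 overlaps Vps25 on the same strand, and its most abundant transcript, Ramp2-205 with a retained intron, held 16.8 TPM on average, so part of its reads may be shared with intronic RNA or with that neighbour.

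Ramp3, on chr11:6658521-6677475 (plus strand), was called in more adult regions than the other RAMPs when these were compared with each other, higher in 7 and lower in 6 where Ramp1 and Ramp2 were called in 0. PVH held 86.8 and 81.5 TPM, DMH 51.95, 94.1, 37.1 and 68.8 TPM, and LHA 55.0, 52.7 and 18.2 TPM. ARH and VMH, next to them, held only 5.29 to 7.28 and 2.50 to 6.18 TPM. All libraries of PVH and DMH were thus above all libraries of ARH and VMH, with no overlap. Against the other 21 regions, Ramp3 was 3.40 (SE 0.21) higher in PVH (adjusted p = 9.45e-19), 2.91 (SE 0.17) higher in DMH and 2.41 (SE 0.20) higher in LHA on the log2 scale, whereas in VMH it was called lower (−1.17), a call that was lost without replicate 1 (−0.66).

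The cerebellar cortex formed a second site of Ramp3. CUL4-5 held 32.6 to 37.5 TPM in 4 libraries, CENT2 21.1 to 38.6 TPM and UVU 21.4 to 28.2 TPM, and these regions were called higher by 2.02, 1.71 and 1.48 on the log2 scale. FL (1.11) was also called, but not without replicate 1 (0.90). ACA, with 18.3, 18.6 and 22.4 TPM, was 1.37 higher. In the caudal brainstem and midbrain Ramp3 was low. NTS held 0.968 ± 0.414 TPM (SD, n = 4, log2 fold change −3.17), VTA 0.877 ± 0.626 TPM (SD, n = 3, −3.07) and DVC 2.60 ± 0.88 TPM (SD, n = 3, −1.73). Of the embryonic regions, F (−2.69), THy-PHy (−1.95) and M (−1.18) were called lower, the last not without M replicate 2. The overlapping antisense gene Gm11978 reached at most 6.31 TPM in any library, against at least 81.5 TPM of Ramp3 in PVH.

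**Figure D4:**
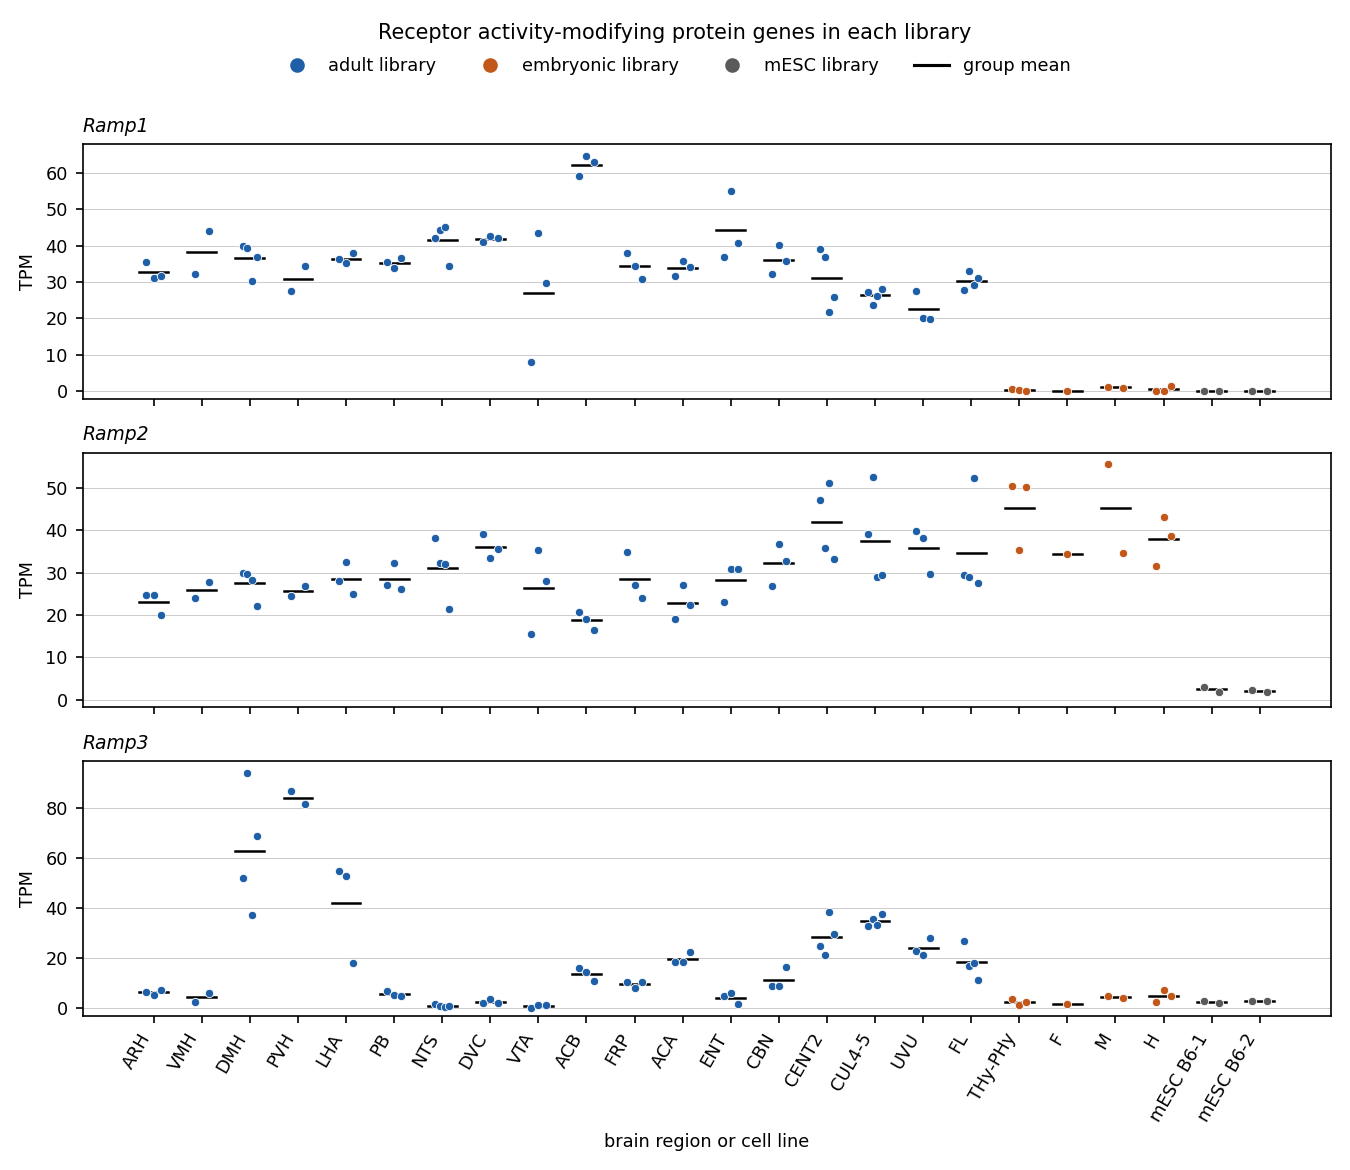
Ramp1 (top), Ramp2 (middle) and Ramp3 (bottom) in each library in TPM, by group, with points for libraries colored by stage and a bar at the group mean. Ramp1 is at 7.92 TPM or more in adult and at 1.35 TPM or less in embryonic libraries, Ramp2 lies between 15.4 and 52.4 TPM in adult libraries, and Ramp3 is highest in PVH, DMH and LHA.

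Which RAMP was most abundant was asked of each adult library as the share of each gene in the summed RAMP TPM. In ACB, Ramp1 took 65.7% of the sum, against 41.8% in the other adult libraries (exact two-sided permutation test over 57 libraries, p = 6.84e-05, adjusted over 54 tests p = 0.00369). Ramp3 took 59.8% in PVH against 18.97% elsewhere (exact permutation, adjusted p = 0.0225) and 48.3% in DMH against 18.3% (exact permutation, adjusted p = 0.0157). The smaller shares that passed the threshold were those of Ramp1 in PVH and CUL4-5 and of Ramp2 in DMH and ACB. Ramp1 took 21.9% in PVH against 43.8% (exact permutation, adjusted p = 0.0465) and 27.0% in CUL4-5 against 44.3% (exact permutation, adjusted p = 0.0465). Ramp2 took 22.4% in DMH and 19.7% in ACB (exact permutation, adjusted p = 0.0225 for both), against 37.6% and 37.5%. The share of Ramp2 in PVH was 18.3% against 37.2% (exact permutation, adjusted p = 0.0714) and that of Ramp1 in DMH 29.3% against 44.1% (exact permutation, adjusted p = 0.101), neither past the threshold. In VTA, Ramp2 took 52.5% against 35.7% (exact permutation, adjusted p = 0.0341), which was lost without replicate 1 (exact permutation, adjusted p = 0.238). In all, 8 of 54 shares passed, and 16 had an unadjusted p under 0.05. The permutation treated single libraries as exchangeable, although libraries of a region resembled each other. A region at either end of the range can thus get a small p, and the other adult libraries are not independent units. For PVH, with n = 2, there were only 1596 groupings, which limits how small its p can be.

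By mean TPM, Ramp1 was the most abundant RAMP in 11 adult regions, Ramp3 in DMH, PVH and LHA, and Ramp2 in CENT2, CUL4-5, UVU and FL. In LHA the shares were close, with 35.4% for Ramp1, 27.1% for Ramp2 and 37.4% for Ramp3. In the embryonic regions Ramp2 took 87.9% to 95.8% of the sum. In the mESC lines, where the sum was only 5.13 and 4.67 TPM, Ramp3 took 51.5% and 57.7%.

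**Figure D5:**
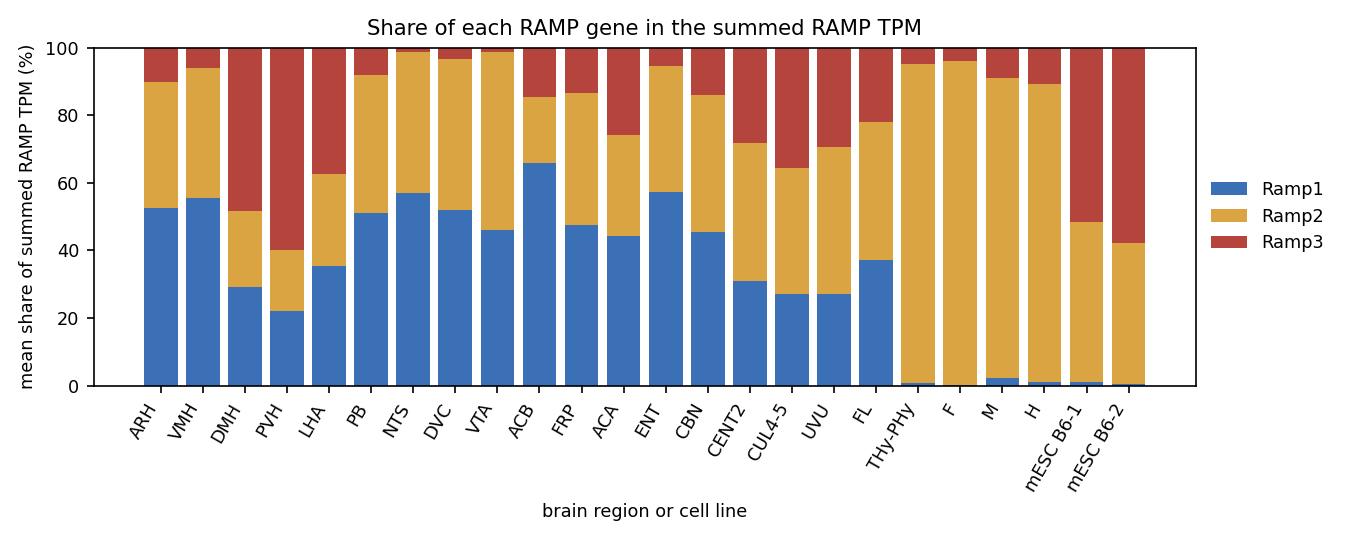
Mean share of Ramp1, Ramp2 and Ramp3 in the summed RAMP TPM (percent, stacked bars to 100) in each group. Ramp1 takes 65.7% in ACB, Ramp3 59.8% in PVH, and Ramp2 at least 87.9% in each embryonic region.

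Receptors and RAMPs were matched by counting the groups in which both had a mean of at least 1 TPM. This shows which RNAs occur in the same punch, not in the same cell. For the amylin receptors, Calcr met this limit with Ramp1 in 12 groups, with Ramp2 in 14 and with Ramp3 in 13. The adult regions with all 3 pairs were ARH, VMH, DMH, PVH, LHA, PB, DVC, ACB, CBN and CENT2. VTA had Calcr with Ramp1 and Ramp2 only, since its Ramp3 mean was under 1 TPM, and NTS lay just under the limit for Calcr. When every library had to reach 1 TPM, the counts for Calcr fell to 7, 8 and 8.

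The balance of RAMPs to Calcr differed widely between the regions that expressed the receptor. In ARH there were 1.16 TPM of Ramp1, 0.819 of Ramp2 and 0.226 of Ramp3 per TPM of Calcr, and in VMH 1.75, 1.19 and 0.199. In PVH there were 3.21 TPM of Ramp1 but 8.74 of Ramp3 per TPM of Calcr, and in LHA 6.86 and 7.90. ARH thus held about as much receptor RNA as Ramp1 RNA, and PVH and LHA held more Ramp3 than receptor, as did DMH with 3.23 TPM of Ramp3 per TPM of Calcr. In DVC, with little Calcr, there were 36.6 TPM of Ramp1 per TPM of Calcr. In THy-PHy, Calcr at 13.8, 14.6 and 8.77 TPM met Ramp1 at only 0.553, 0.271 and 0.178 TPM, or 0.0269 TPM of Ramp1 and 3.65 of Ramp2 per TPM of receptor.

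For the CGRP receptor, Calcrl met the limit together with Ramp1 in all 18 adult regions and in M, but not in THy-PHy, F, H or the mESC lines. There were 4.71 (UVU) to 21.1 (ACB) TPM of Ramp1 per TPM of Calcrl in adult regions. For the adrenomedullin receptors, Calcrl and Ramp2 met the limit in all 22 brain regions, and Calcrl and Ramp3 in 20, with NTS and VTA short of it. The pairs of Calcrl were counted in the same number of groups when every library had to reach 1 TPM.

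Calca and Calcr were both called higher in DMH, PB, CBN and THy-PHy, and Calcb and Calcr both in PVH and PB. Of these calls, Calca in DMH, both in CBN and Calcb in PVH were lost when a single library was left out. PB held Calca at 39.2 TPM with Calcr at 11.3, Calcrl at 4.03 and Ramp1 at 35.3 TPM. DVC held Calca and Calcb at 39.4 and 14.4 TPM with Calcr at 1.14, Calcrl at 3.29 and Ramp1 at 41.9 TPM. ACB, with the most Ramp1, held 2.35 ± 0.79 TPM of Calca (SD, n = 3) and no count of Calcb. Over the 18 adult regions Calca and Calcb had a correlation of r = 0.71, Calcr and Calcrl of r = 0.65, Calca and Calcr of r = 0.40, and Calca and Ramp1 of r = 0.23. These values describe regions taken in part from the same animals and carry no test.

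When all 24 groups were ordered by mean TPM, most neighbours did not differ by more than the larger of their SDs. Of 23 neighbouring pairs, Calcr had 4 that did, Calcrl, Ramp1 and Ramp3 had 3 each, Calca and Ramp2 had 2 each and Calcb had 1. For Calca the steps were from PB to THy-PHy and from ACB to CUL4-5, and DVC and PB at the top did not differ beyond their spread. For Calcr the steps lay between DMH and THy-PHy, PVH and LHA, and NTS and F. The means of ARH, VMH and DMH thus stood apart at the top, although single libraries of VMH and DMH overlapped those of THy-PHy and PB. For Ramp1 they lay between ACB and ENT and between UVU and M, and for Ramp3 between UVU and ACA, FRP and ARH, and F and NTS.

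Between embryonic and adult tissue, THy-PHy was compared with the mean of the 5 adult hypothalamic groups, and H with the mean of PB, NTS and DVC. Stage and sample batch cannot be told apart here. In the hypothalamus 3 of 7 members were called, where 38.3% of all genes were called. Ramp1 was 6.63 (SE 0.31) lower in the embryo on the log2 scale (adjusted p = 3.41e-25) and Ramp3 3.19 (SE 0.37) lower (adjusted p = 5.74e-11), with no overlap of libraries for Ramp1. Calca was 1.37 (SE 0.50) higher (adjusted p = 0.0139), a call lost without THy-PHy replicate 3 (1.11, adjusted p = 0.104). Calcr, with 12.4 ± 3.2 TPM (SD, n = 3) in THy-PHy, had a difference of −0.10 (SE 0.45, adjusted p = 0.882), and Ramp2 one of 0.71 (SE 0.18), under the fold limit.

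In the hindbrain 4 of 7 members were called, where 44.0% of all genes were called. Ramp1 was 6.26 (SE 0.30) lower in H (adjusted p = 8.62e-25) and Calca 2.08 (SE 0.65) lower (adjusted p = 0.00392). The libraries of H held 1.69, 2.18 and 15.7 TPM of Calca, and the difference was −4.00 without replicate 3 and −1.50 without DVC replicate 1, both still called. Calcb had 0 counts in H, at least 27.7-fold lower than the arithmetic mean of PB, NTS and DVC, with a floor of 3 counts over the group. Without DVC replicate 1 in that mean it was at least 13.5-fold lower. Ramp3 was 1.10 (SE 0.33) higher in H (adjusted p = 0.00252), which was lost without H replicate 2 (0.66, adjusted p = 0.141). Calcrl was 0.98 (SE 0.16) higher, just under the fold limit (adjusted p = 1.85e-07). The median difference of the 7 members was 0.11 in the hypothalamus and 0.03 in the hindbrain, against 0.03 and 0.02 over all genes.

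The change with stage itself differed between hypothalamus and hindbrain for 3 of 7 members, where 9.85% of all genes were called. Calca differed by 3.45 (SE 0.83, adjusted p = 0.00111) and Calcb by 7.73 (SE 2.05, adjusted p = 0.00378), both more positive in the hypothalamus. The value for Calcb depends on libraries at 0 and is no measure of size. Ramp3 differed by −4.29 (SE 0.48, adjusted p = 2.09e-09), lower in the embryonic hypothalamus and higher in the embryonic hindbrain than in the adult. For Ramp1 the difference was −0.37 (SE 0.56, adjusted p = 0.690).

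Compared with the 4 embryonic regions, the mESC lines had 5 of 7 members called, where 56% of all genes were called. Calca was 1.66 (SE 0.52) higher (adjusted p = 0.00367), with 15.5 and 15.6 TPM in B6-1 and 13.5 and 20.3 TPM in B6-2. Calcrl fell by 5.46, Calcr by 4.67 and Ramp2 by 3.03 on the log2 scale, with Calcrl at 0.0418 to 0.254 TPM. Each line held 1 count of Ramp1, 17.9-fold lower in B6-1 (95% counting interval 3.21 to 706) and 16.0-fold lower in B6-2 (2.87 to 631) than the embryonic mean. The lines thus held the ligand RNA with almost no receptor RNA. Ramp3 had a difference of 0.30 (SE 0.32, adjusted p = 0.406). Culture, extraction kit and batch cannot be told apart from the cell type.

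DVC and NTS are neighbouring punches, and only 15 genes (0.0752% of all genes) were called between them. Calca was 1 of the 15, with 2.95 (SE 0.66, adjusted p = 0.0463) more in DVC on the log2 scale, and the other 6 members were not called. The call rested on DVC replicate 1, without which the difference was 1.22 (adjusted p = 0.810), and it was also lost without NTS replicate 1, 2 or 4. Calcb had a difference of 3.29 (SE 0.89, adjusted p = 0.216) and Ramp3 one of 1.38 (SE 0.46, adjusted p = 0.386). Choroid plexus markers summed to 284.1 TPM in DVC replicate 1, and to 3.84 and 57.5 TPM in the other DVC libraries.

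Other genes of the pathway were read from a list of 15. Iapp, which encodes amylin, was listed at 0 in 62 libraries, reached at most 0.490 TPM and was too low to test. Among the related ligands, adrenomedullin (Adm) was called higher in NTS, DVC, VTA, CBN and FL and lower in ACB and CENT2. Its mean was 5.95 ± 1.38 TPM (SD, n = 4) in NTS (log2 fold change 1.81, SE 0.24). Adm2 was at 0 in 61 libraries and was called higher in NTS and THy-PHy from traces. Crcp, whose product is a component that helps CGRP receptor signalling, was even at 16.1 to 64.1 TPM and was called in 0 regions by edgeR, with an unadjusted p under 0.05 in 14 and differences from −0.59 to 0.61. Ackr3, an adrenomedullin scavenger, was called higher in F alone (29.8 TPM).

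Of the signalling genes, Gnas, the stimulatory G protein subunit, was called lower in ACB (704.0 TPM, −1.26), the region with the most Ramp1. Arrb1 was called lower in THy-PHy, F and H, and Arrb2 in 0 regions by edgeR, with an unadjusted p under 0.05 in 15 and differences from −0.42 to 0.37. The peptide-processing genes Pam, Pcsk1, Pcsk2 and Cpe, which cleave and amidate precursors such as those of CGRP, were called higher in 4, 8, 5 and 3 regions and lower in 6, 4, 4 and 4. All 4 were lower in F, M and H. Pam was highest in VMH (517.5 TPM) and Pcsk1 in ARH (50.4 TPM), and in PB, where Calca was high, the differences were 0.77 for Pam, 0.76 for Pcsk1, 0.40 for Pcsk2 and −0.17 for Cpe, all under the fold limit. Of the peptidases, Mme was called higher in LHA, VTA, ACB and H and lower in ARH, CENT2, CUL4-5 and UVU, and Ece1 was called higher in CUL4-5 and lower in F. Ide was left out because its transcript and gene values did not match.

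The genes most like each member were taken as the 3 with the highest correlation over the 18 adult regions, among 17955 genes. Calcr was followed most closely by Ncam1 (r = 0.95), Mttp (0.94) and Gabre (0.94), and Ramp2 by Carmil2 (0.94), Mroh1 (0.92) and Ankrd9 (0.92). Calcb was followed by Uts2b (0.92), Tbx20 (0.91) and Prok1 (0.87), all highest in DVC. Calca was followed by Prph (0.88), Mrpl17 (0.86) and Trim36 (0.85). For Calcrl the genes were Thap6 (0.86), Dsc2 (0.85) and Pea15a (0.84), for Ramp1 Adck1 (0.85), Rhbdl3 (0.83) and Gen1 (0.83), and for Ramp3 Ptpn4 (0.86), Fam126b (0.82) and Sh2d4b (0.82). With so many candidates and 18 points, these are the nearest patterns and nothing more.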

How the data were processed

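RNA was sequenced from pooled tissue punches and mESCs as strand-specific single reads. The authors demultiplexed reads with CASAVA 1.8.2, pseudoaligned them to GRCm38 transcripts with kallisto and deposited estimated counts per transcript and TPM per transcript and gene. Gene TPM is the sum over transcripts. Of 109282 transcripts, 107899 (98.73%) were matched to a gene by the GENCODE release 21 mouse annotation, and the others held 0.432% to 0.788% of the counts. Reads shared by similar transcripts are split by estimation, which makes transcript levels less sure than gene levels.

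Estimated counts were summed by gene, rounded and fitted over all 70 libraries by edgeR 4.0.16 (TMM factors, quasi-likelihood test, 19960 genes passing the filter on low counts, Benjamini-Hochberg adjustment over all of them) in R 4.3.3, with a mean per group and no covariate. All 7 members were tested. The filter can be passed by 1 library, as F has only 1. RAMP shares were tested by exact permutation with SciPy 1.17.1. Correlations used log2(mean TPM + 1), and sequence identity came from Biopython 1.88. Group sizes, depths and 6 cell type marker lists (endothelial, mural, fibroblast and meninges, cholinergic and motor neuron, pituitary, choroid plexus) are given with the results. The fits were tested on simulated data.

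The members, marker and pathway lists were chosen with earlier results of these data known. Genes named are the members, 15 pathway genes, the 3 genes most alike to each member, and markers set beside a member. Alternatives were DESeq2 1.42.0, RLE factors, no filter, limma 3.58.1 on log2 TPM, the replicate number as a block and no mESC libraries. Further ones were adult regions alone, no fold limit, and each library left out except the single F library. Replicate numbers were not used as pairs. Same-numbered libraries of 2 groups had a median correlation of 0.014 in their deviations, and 13.5% of 436 pairs exceeded 0.1. The serial numbers in the sample descriptions do not follow the replicate numbers. Neither these values nor the replicate block can therefore show whether libraries with different numbers share animals or a batch. The study lists the collection batches of each region, with embryos and mESCs in batches of their own, but not which library belongs to which, so no within-batch values were computed. No 2 replicates agreed within sampling noise (chi-square per gene of at least 2.59 in 74 pairs). Counting intervals and floors cover counting error only. One marker of the label check is not reported here.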

Additional observations from a re-analysis of the deposited data

Results flagged for a closer look

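In 34 sets of a member in a group of 4 libraries, 4 libraries lay apart from the others by Dixon's criterion, which chance meets in about 1 of 20 sets. Calca was 40.75 TPM in FL replicate 1, and 10.4 to 13.5 TPM in the other FL libraries. Calcb was 5.06 TPM in FL replicate 4, and 0.215 to 0.743 TPM in the others. Ramp2 was 52.22 TPM in FL replicate 3, and 27.5 to 29.5 TPM in the others, so that 3 different FL libraries stood apart for 3 members. Calcb was 0.2623 TPM in CENT2 replicate 1, from 1 estimated count, and at 0 in the other CENT2 libraries.

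The change between embryonic and adult tissue differed between hypothalamus and hindbrain for 3 members by edgeR's test of the difference itself. On the log2 scale the hypothalamic change exceeded that of the hindbrain by 3.448 for Calca and by 7.727 for Calcb, where H held 0 counts, and for Ramp3 the value was −4.286. The mean TPM of Ramp3 was 2.44 in THy-PHy and 39.97 in the adult hypothalamus, against 4.91 in H and 3.05 in the adult hindbrain regions. The adult hypothalamic value joins 84.2, 63.0 and 42.0 TPM in PVH, DMH and LHA with 6.39 and 4.34 TPM in ARH and VMH. THy-PHy replicate 1, at 3.79 TPM, was above VMH replicate 1, at 2.50 TPM.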

How the results depend on the processing

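Of 86 called differences of single members, 84 kept direction and call under DESeq2 and 85 with RLE factors. With no filter 84 did so, and with the replicate block 85. Under limma 74 did so on log2(TPM + 0.1) and 65 on log2(TPM + 0.5). When libraries of the compared groups were left out singly, 70 lost no call. For region calls only the region's own libraries were left out, not those of the rest. The single F library was not left out, so the calls in F count among the 70 untested. Of 58 calls in adult regions, 40 held with the other 17 adult regions as the rest, and Ramp1 turned in ARH (−0.20), DMH (−0.024), PVH (−0.19), VTA (−0.064) and CENT2 (−0.29). Calcr in CBN turned under limma on log2(TPM + 0.5), with and without the filter (−0.0073, adjusted p = 1.000 and 1.000).

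The 70 member and region calls became 54 under limma on log2(TPM + 0.5). They were 68 to 71 when a library was left out of its own region's comparison. The count was 70 with the replicate block. Of the 70, the 58 calls in adult regions became 42 (of 126) with the other 17 adult regions as the rest. In DVC against NTS the 1 call became 0 with no filter, under limma on log2(TPM + 0.1), with the replicate block and without mESC libraries, and was 0 to 1 with a library left out. Counts with a library left out were 2 to 3 for stage in hypothalamus, 4 to 5 in hindbrain, 3 to 4 for their difference and 5 for mESC. RAMP shares passing fell from 8 to 5 on log2(TPM + 1) and to 4 on estimated CPM, and were 5 to 8 with a library left out (5 without VTA replicate 3, ACB replicate 1 or ACB replicate 2). With every library at 1 TPM or more, Calcr pairs fell from 12, 14 and 13 to 7, 8 and 8.

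Depth limits Calcb, and Calcr in cortex and cerebellar cortex, which rest on a few reads per library. Several groups have 2 libraries and F has 1, so that single libraries decide several calls. The cause of the turned values and changed counts was not tested.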
